A study of Homo sapiens with 3 samples.

Results

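The BCL2 family decides whether a cell opens the outer membrane of its mitochondria and starts the intrinsic route of apoptosis. 10 of its genes were followed here, taken from the count table by their symbols: the survival genes BCL2, BCL2L1, BCL2A1 and MCL1, the effector genes BAX and BAK1, and the BH3-only genes BCL2L11, BBC3, PMAIP1 and BID. All 10 were found among the 24424 genes of the table, and all 10 passed the count minimum described further on. The samples were 3 stable populations of A375SM, a metastatic human melanoma line derived from A375, with 1 library each. The shPRAME population carried a hairpin vector against PRAME, a cancer-testis antigen that acts as a substrate receptor of a CUL2 ubiquitin ligase. The shBAP1 population carried a hairpin vector against BAP1, a nuclear deubiquitinase. The shEmpty population carried the control vector, which the design text calls a non-targeting hairpin and which the sample label lists as wild type. All 3 populations, the control included, had been infected with lentivirus bearing a green fluorescent reporter and selected for it, and each knockdown is represented by 1 selected population.

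In the family, survival proteins hold the effectors BAX and BAK1 in check by binding them or the BH3-only proteins. BH3-only proteins act as stress sensors that either occupy the survival proteins or activate the effectors directly, and activated effectors form pores through which cytochrome c leaves the mitochondrion. Melanoma cells are known to rely strongly on MCL1 and BCL2A1, and both BCL2 and BCL2A1 are known targets of the melanocyte transcription factor MITF. The counts are per gene, so splice forms with opposite activity, which BCL2L1 and MCL1 are known to have, were not separated.

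With 1 library a group, the differences below have no check by replicates, and no p-values are given. Both knockdown libraries are compared with the same shEmpty library, so ratios that agree in both are not independent of each other. Effects of a hairpin on its target and on other transcripts cannot be told apart. The libraries held 18456328 counts (shPRAME), 14181829 counts (shBAP1) and 19430130 counts (shEmpty). Levels are given in CPM (counts scaled to library size) with exact 95% intervals that cover counting error only. Genes whose counts averaged 50 or more over the 3 libraries were measured, 11956 in all. A gene was called higher or lower where the ratio of scaled counts was at least 2-fold and its exact 95% counting interval left out no change, which describes these libraries and not the conditions. PRAME was at 108 CPM in shPRAME, 455 CPM in shBAP1 and 327 CPM in shEmpty, and BAP1 at 97.9, 35.2 and 100.0 CPM in the same order, so that each target was lowest in the library with its own hairpin. Of 13 melanocytic and melanoma markers, a list that includes PRAME itself, 12 had counts in shPRAME, 13 in shBAP1 and 12 in shEmpty. Their summed levels were 6799, 3154 and 4148 CPM, and most of the shPRAME sum came from CSPG4 (3095 CPM) and NES (2136 CPM). SOX10 and S100A1 had the same order over the libraries as the sum, whereas MITF, S100B and PRAME were lowest in shPRAME. SOX10, NES and CSPG4 were abundant, whereas the differentiation antigens PMEL (8, 34 and 6 counts) and MLANA (7, 19 and 3 counts) were low in all 3 libraries. The pigment genes TYR, TYRP1 and DCT had 573, 1037 and 1668 counts in shBAP1, against at most 6 counts each in shPRAME and 4, 0 and 192 counts in shEmpty. Markers of other cell types summed to between 34.6 and 51.1 CPM for fibroblasts, 27.3 and 53.6 CPM for keratinocytes, 11.7 and 79.1 CPM for endothelium and 51.4 and 150 CPM for immune cells. Most of these sums came from CD68 (2639 counts in shPRAME, 916 in shBAP1 and 919 in shEmpty), KDR (572, 170 and 1476), KRT10 (494, 789 and 632), and LUM (399, 483 and 364) with PDGFRA (447, 33 and 263), and PTPRC had 52, 32 and 40 counts. Lower counts, again in shPRAME, shBAP1 and shEmpty, were seen for DCN (49, 40 and 20), COL3A1 (13, 66 and 1) and LYZ (34, 15 and 3). COL1A1 had 23, 3 and 1 counts and CD14 19, 5 and 1. Of the other genes on these lists CD3E, CDH5 and KRT1 had no count, and CDH1 and PECAM1 had at most 2 in any library. The rest had at most 6. The part of such cells or transcripts in the results was not tested. In bulk RNA, fewer cells with a transcript and less of it per cell cannot be told apart.

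In the shPRAME library BCL2 was 27.9-fold lower than in shEmpty, at 10 against 286 counts, and PMAIP1, which encodes the BH3-only protein NOXA, was 2.47-fold lower than in shEmpty. In the shBAP1 library BCL2A1 was 2.55-fold lower than in shEmpty. None of the 10 members was called higher than shEmpty in either knockdown library. In shPRAME 2 of 10 members were called (0 higher and 2 lower), beside 19.3% of all measured genes (10.2% higher and 9.08% lower). In shBAP1 1 of 10 was called (0 higher and 1 lower), beside 14.1% of all genes (5.53% higher and 8.56% lower). These counts lie near the background, so calls were about as frequent among the members as elsewhere. The median log2 ratio of the members was -0.46 in shPRAME, against -0.06 for all measured genes, and -0.06 in shBAP1, against -0.03 for all measured genes. With the counts scaled by library total the median of all genes in shBAP1 against shEmpty moved by 0.12 on the log2 scale, and the higher genes made up 49.8% in place of 39.2% of the calls, but the members called were unchanged.

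**Figure D1:**
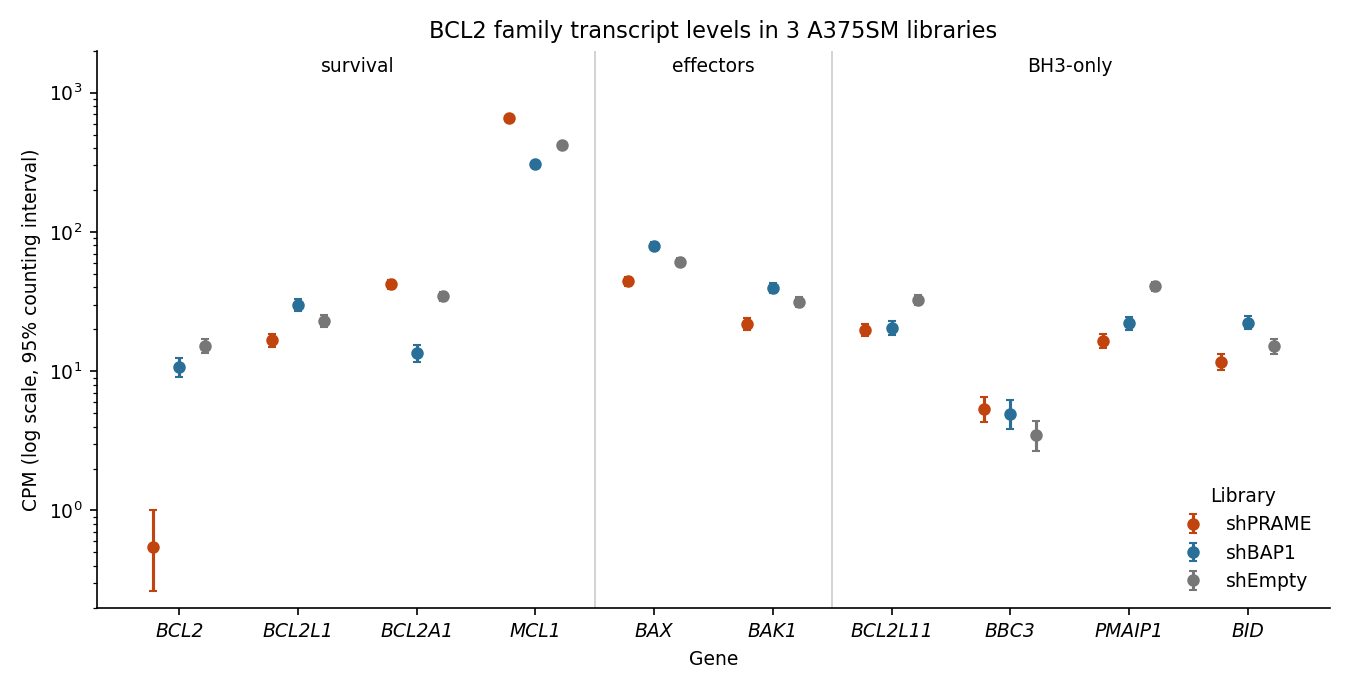
Level of each family member in the shPRAME, shBAP1 and shEmpty libraries (CPM, log scale; bars are exact 95% counting intervals of 1 library each), grouped by role. BCL2 in shPRAME lies far below every other point at 0.547 CPM, and MCL1 lies above all other members in each library.

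The 3 members called against shEmpty are shown with the sequence around their transcription starts, from 250 bases before to 50 bases after the start, as RefSeq gives it for GRCh38.p14. The counts themselves were made on hg19 per the submitters' processing notes and carry no coordinates. A promoter was found by symbol for 9 of the 10 members. Capitals mark matches, on either strand, to the E-box CACGTG, to its variant CATGTG, to TGACGT (the core of a cyclic AMP response element), to the AP-1 site TGAGTCA, to the GC box GGGCGG and to the TATA box TATAAA.
BCL2, chr18:63319720-63320019, minus strand: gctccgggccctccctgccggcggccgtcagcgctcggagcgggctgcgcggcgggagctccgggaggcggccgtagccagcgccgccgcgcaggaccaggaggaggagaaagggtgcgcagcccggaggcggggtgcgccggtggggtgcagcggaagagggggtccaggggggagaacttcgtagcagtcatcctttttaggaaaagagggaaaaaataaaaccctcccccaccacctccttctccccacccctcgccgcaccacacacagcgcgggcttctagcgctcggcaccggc
PMAIP1, chr18:59899746-59900045, plus strand: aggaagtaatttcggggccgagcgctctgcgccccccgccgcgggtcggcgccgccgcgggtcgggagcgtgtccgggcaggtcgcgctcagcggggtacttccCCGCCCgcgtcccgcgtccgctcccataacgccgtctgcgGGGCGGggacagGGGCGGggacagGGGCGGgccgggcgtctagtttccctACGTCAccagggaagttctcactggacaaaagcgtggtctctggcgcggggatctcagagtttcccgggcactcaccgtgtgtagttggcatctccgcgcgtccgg
BCL2A1, chr15:79971147-79971446, minus strand: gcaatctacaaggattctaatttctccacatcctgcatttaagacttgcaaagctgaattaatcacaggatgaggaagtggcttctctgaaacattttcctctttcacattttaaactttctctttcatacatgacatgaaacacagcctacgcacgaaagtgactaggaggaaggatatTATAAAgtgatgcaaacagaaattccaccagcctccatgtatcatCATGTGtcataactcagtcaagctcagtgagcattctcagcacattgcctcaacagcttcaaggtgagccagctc

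The BCL2 window held none of these 6 motifs at a GC content of 70.7%. The PMAIP1 window (71.3% GC) held 4 GC boxes, whose first bases lie 146, 106, 94 and 82 bases before the start, and the reverse of TGACGT at 56 bases before it. The BCL2A1 window (41.0% GC) held a TATA box 70 bases before the start and CATGTG at 25 bases before it, and no matches overlapped in these 3 windows. Among 35116 promoters of the same length, 7.26% held CACGTG, 11.1% CATGTG, 7.98% TGACGT, 4.95% TGAGTCA, 45.0% the GC box and 11.5% the TATA box. These matches are a description of letters and show no binding.

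Among the survival genes, BCL2, the founding member and the target of venetoclax, had 10 counts in shPRAME (0.547 CPM, 0.262 to 1.01), 159 counts in shBAP1 (10.7 CPM, 9.11 to 12.5) and 286 counts in shEmpty (15.3 CPM, 13.5 to 17.1). The shPRAME level stood clear of both others. It was 27.9-fold below shEmpty (14.96 to 58.8) and called lower, and only 19 of the 11956 measured genes had a log2 ratio at or below that of BCL2 (-4.80). In shBAP1 the ratio was 1.43-fold downward (1.17 to 1.74), was not called, and turned upward (log2 0.08) once chromosome medians were subtracted. The counting interval for shPRAME rests on few reads, so the size of the fold is less certain than its direction. With a pseudocount of 1 CPM the log2 ratio in shPRAME was -3.39 against shEmpty and -2.92 against shBAP1, on a scale that understates changes of low genes.

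BCL2A1, a survival gene of the melanocyte lineage, had 770 counts in shPRAME (42.1 CPM, 39.2 to 45.2), 201 in shBAP1 (13.5 CPM, 11.7 to 15.5) and 648 in shEmpty (34.6 CPM, 32.0 to 37.4). The shBAP1 library was the low one, 2.55-fold below shEmpty (2.18 to 3.01), and was called lower. In shPRAME the ratio was 1.22-fold upward (1.10 to 1.35) and was not called. MITF, the known regulator of both BCL2 and BCL2A1, was at 114 CPM in shPRAME, 239 CPM in shBAP1 and 310 CPM in shEmpty, so the library with the least MITF was the one with the most BCL2A1 and the least BCL2. The part of MITF in these values was not tested.

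MCL1, the short-lived survival protein that binds NOXA and BIM, had 12066 counts in shPRAME (660 CPM, 648 to 672), 4594 in shBAP1 (309 CPM, 301 to 319) and 7895 in shEmpty (421 CPM, 412 to 431). The 3 intervals did not overlap, yet the ratios to shEmpty, 1.57-fold upward in shPRAME (1.52 to 1.61) and 1.36-fold downward in shBAP1 (1.31 to 1.41), stayed within the 2-fold limit. BCL2L1, which encodes BCL-XL and BCL-XS, was at 16.6 CPM in shPRAME (14.8 to 18.6) and at 30.0 CPM in shBAP1 (27.3 to 32.9), against 22.9 CPM in shEmpty (20.8 to 25.2). Its order was the reverse of that of MCL1, with ratios to shEmpty of 1.38-fold downward in shPRAME and 1.31-fold upward in shBAP1, neither of them called.

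The effector genes BAX and BAK1, whose products form the pores, kept nearly the same proportion to each other in the 3 libraries. BAX was at 44.1 CPM in shPRAME (41.1 to 47.3) and at 79.9 CPM in shBAP1 (75.4 to 84.6), against 61.0 CPM in shEmpty (57.5 to 64.6). BAK1 was at 21.7 CPM in shPRAME (19.6 to 24.0) and at 39.5 CPM in shBAP1 (36.3 to 42.8), against 31.5 CPM in shEmpty (29.05 to 34.2). Both were lowest in shPRAME and highest in shBAP1, and none of the 4 ratios to shEmpty was called. They were 1.38-fold (BAX) and 1.45-fold (BAK1) downward in shPRAME, and 1.31-fold and 1.25-fold upward in shBAP1, where the upward ratio of BAK1 turned downward (log2 -0.11) once chromosome medians were subtracted. BAK1 lies on chromosome 6, whose 585 measured genes had a median log2 ratio of 0.40 in shBAP1. BAX made up 67.0% of the summed BAX and BAK1 counts in shPRAME (64.3% to 69.6%, Wilson 95% interval), 66.9% in shBAP1 (64.7% to 69.1%) and 65.9% in shEmpty (63.7% to 68.1%), with overlapping intervals. BAK1 has a processed pseudogene, so its counts may hold reads shared with that copy.

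Of the BH3-only genes, PMAIP1 had downward ratios in both knockdown libraries, each taken against the same shEmpty library, and passed the limit in shPRAME. It had 301 counts in shPRAME (16.5 CPM, 14.7 to 18.4), 327 in shBAP1 (22.03 CPM, 19.7 to 24.5) and 762 in shEmpty (40.7 CPM, 37.8 to 43.7). The intervals of the 3 libraries were apart, and the ratio to shEmpty was 2.47-fold downward in shPRAME (2.16 to 2.83), which was called, and 1.85-fold downward in shBAP1 (1.62 to 2.11), which was not. The call in shPRAME ended at a fold limit of 3 and when chromosome medians were subtracted. BCL2L11, which encodes BIM, an activator of BAX and BAK1 that MAPK signalling is known to hold down, was at 19.9 CPM in shPRAME (17.9 to 22.01) and at 20.4 CPM in shBAP1 (18.2 to 22.8), against 32.7 CPM in shEmpty (30.1 to 35.4). The knockdown libraries overlapped with each other and lay below the control, by 1.65-fold in shPRAME (1.44 to 1.88) and 1.6-fold in shBAP1 (1.39 to 1.84), neither of them called.

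BID, which caspase-8 cleaves to link death receptors to mitochondria, was at 11.7 CPM in shPRAME (10.2 to 13.4) and at 22.4 CPM in shBAP1 (20.02 to 24.9), against 15.1 CPM in shEmpty (13.4 to 17.0). Its order over the libraries was that of BAX, BAK1 and BCL2L1, with ratios to shEmpty of 1.29-fold downward in shPRAME and 1.48-fold upward in shBAP1, not called. BBC3, which encodes PUMA, a BH3-only protein that binds all of the main survival proteins, was the least abundant BH3-only gene by count, with 98 counts in shPRAME (5.36 CPM, 4.35 to 6.53), 73 in shBAP1 (4.92 CPM, 3.85 to 6.18) and 65 in shEmpty (3.47 CPM, 2.68 to 4.42). Its knockdown libraries overlapped, as did shBAP1 and shEmpty, and the ratios to shEmpty of 1.55-fold upward (1.12 to 2.15) in shPRAME and 1.42-fold upward (1.00 to 2.01) in shBAP1 were not called.

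**Figure D2:**
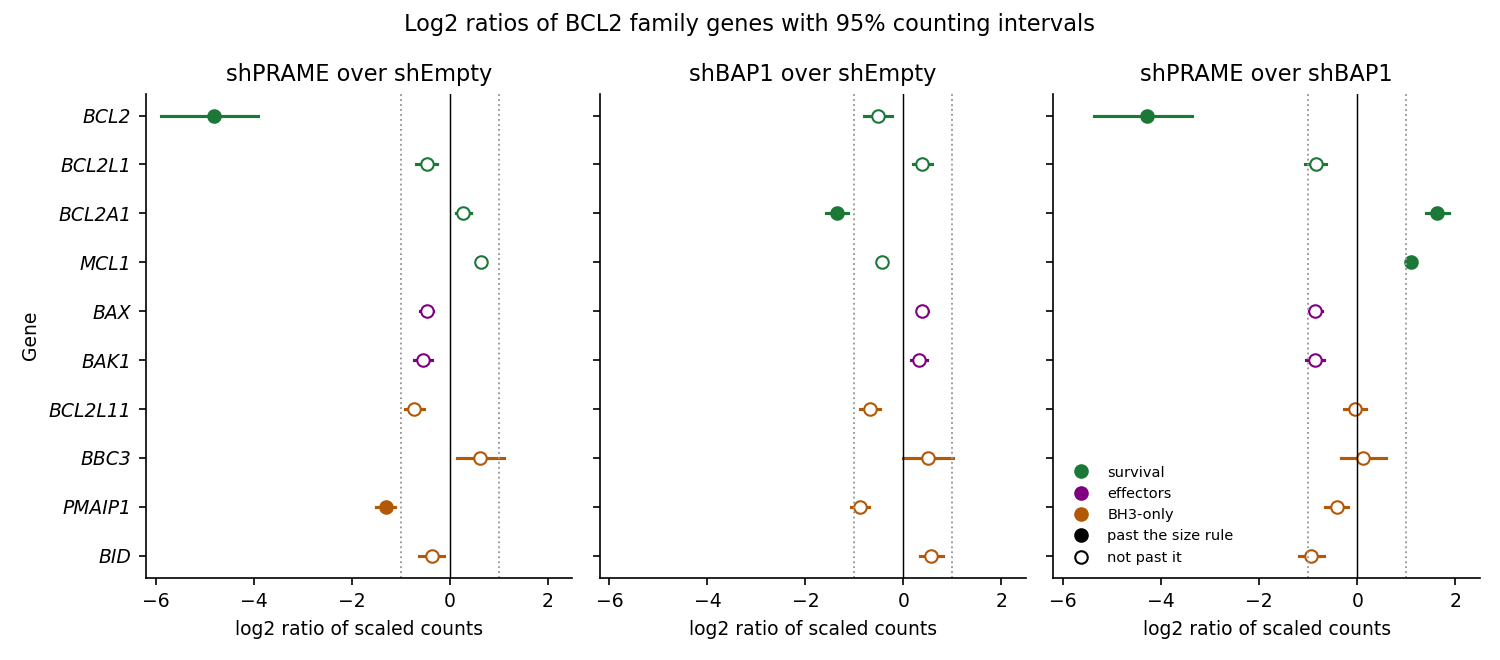
Log2 ratio of each member for shPRAME over shEmpty, shBAP1 over shEmpty and shPRAME over shBAP1 (x axis), with exact 95% counting intervals; filled points passed the size rule and dotted lines mark the 2-fold limit. BCL2 at -4.80 is the widest departure among the members, and subtracting chromosome medians turned the signs of BAK1 (0.32 to -0.11) and BCL2 (-0.51 to 0.08) in shBAP1 over shEmpty and of BCL2L11 (-0.04 to 0.21) and BBC3 (0.12 to -0.05) in shPRAME over shBAP1.

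BCL2 and PMAIP1, both called lower in shPRAME, lie on the same chromosome, and genes of that chromosome were lower as a group. The 165 measured genes of chromosome 18 had a median log2 ratio of -0.68 in shPRAME and -0.62 in shBAP1 against shEmpty, and -0.07 in shPRAME against shBAP1. Of these genes, 138 lay below 0 in shPRAME and 150 in shBAP1, and 31.5% and 30.9% were called. Of all 11956 measured genes 6413 and 6268 lay below 0, and 19.3% and 14.1% were called. Other chromosomes were shifted too. In shPRAME the median was -0.63 on chromosome 13 and 0.39 on chromosome 7, and in shBAP1 -0.54 on chromosome 8 and 0.40 on chromosome 6. PMAIP1 lay at -0.62 on the log2 scale relative to the chromosome 18 median in shPRAME, where 25 of the 165 genes had a ratio as low or lower, and in shBAP1 it lay at -0.26. When each chromosome's median, taken relative to the median of all measured genes, was subtracted, the log2 ratio of PMAIP1 became -0.69 in shPRAME, where its call ended, and -0.30 in shBAP1. BCL2 lay at -4.12 relative to the chromosome median in shPRAME, had a log2 ratio of -4.18 after that subtraction and was still called, with 2 of the 165 genes, itself included, as low or lower. In shBAP1 the ratio of BCL2 became 0.08, so the downward value of -0.51 there was near the chromosome's median. What part the chromosome has in the PMAIP1 value was not tested.

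The protein-coding neighbours of these members, looked up by RefSeq gene order after the values were seen, gave local context. Around BCL2, the log2 ratios in shPRAME against shEmpty were -0.66 for ZCCHC2, -0.53 for PHLPP1, -0.92 for KDSR and -1.03 for VPS4B, so that VPS4B passed the limit and all 4 lay far above BCL2 itself. In shBAP1 the same genes were at -1.01, -0.81, -0.78 and -0.29. Next to PMAIP1, LMAN1 was at -0.34 in shPRAME and -0.60 in shBAP1, whereas CCBE1 had 129 counts in shPRAME and 20 in shBAP1 against 4 in shEmpty. MC4R and CDH20 on the other side had at most 5 counts in any library. Beside BCL2A1, on chromosome 15, the log2 ratios of MTHFS, ZFAND6 and FAH in shBAP1 were 0.35, 0.03 and 0.05, against -1.35 for BCL2A1, and the 401 measured genes of that chromosome had a median of -0.01.

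**Figure D3:**
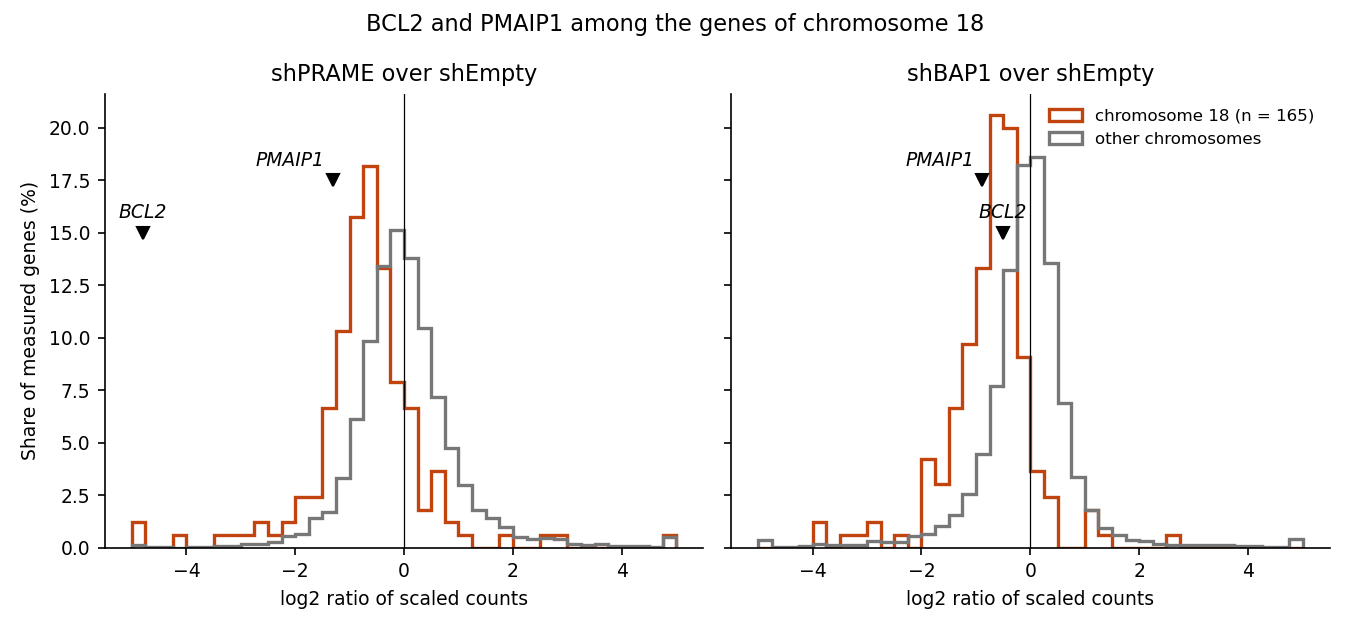
Distribution of log2 ratios (x axis) over the measured genes of chromosome 18 (n = 165) and of the other chromosomes, as a share of each set, for shPRAME over shEmpty and shBAP1 over shEmpty; values beyond 5 are placed in the end bins. The chromosome 18 curve is centred near -0.68 and -0.62, with PMAIP1 within its lower part and BCL2 far below it in shPRAME but inside it in shBAP1.

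Set directly against shBAP1, 3 of the 4 survival genes passed the size rule in shPRAME. BCL2 was 19.6-fold lower (10.4 to 41.6), BCL2A1 3.11-fold higher (2.66 to 3.65) and MCL1 2.13-fold higher (2.06 to 2.21), all 3 called. These were 3 of 10 members (2 higher and 1 lower), beside 25.1% of all measured genes (14.2% higher and 10.9% lower), again near the background. The members' median log2 ratio was -0.64, against -0.06 for all measured genes. BCL2L1 (1.80-fold), BAX (1.81-fold), BAK1 (1.82-fold) and BID (1.91-fold) all had downward ratios inside the limit. BID passed the limit when counts were scaled by library total (log2 -1.01). BAX (-1.03) and BID (-1.13) passed it when chromosome medians were subtracted. The members called then came to 5 of 10, beside 2851 of the 11956 measured genes. PMAIP1 had a downward ratio of 1.34-fold, while the log2 ratios of BCL2L11 (-0.04, -0.26 to 0.18) and BBC3 (0.12, -0.33 to 0.58) had intervals that included no change, and their signs turned under the chromosome subtraction (0.21 for BCL2L11 and -0.05 for BBC3).

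Shares within a library do not depend on how libraries are scaled to each other. MCL1 made up 91.8% of the summed counts of the 4 survival genes in shPRAME (91.3% to 92.2%), 85.1% in shBAP1 (84.1% to 86.0%) and 85.3% in shEmpty (84.5% to 86.0%). BCL2 supplied 0.0760% in shPRAME (0.0413% to 0.140%), 2.94% in shBAP1 (2.53% to 3.43%) and 3.09% in shEmpty (2.76% to 3.46%), so that its share in shBAP1 overlapped with the control. BCL2L1 had its largest share in shBAP1 at 8.24% (7.54% to 9.01%), against 2.31% in shPRAME and 4.63% in shEmpty. BCL2A1 supplied 5.86% in shPRAME, 3.72% in shBAP1 and 6.999% in shEmpty.

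**Figure D4:**
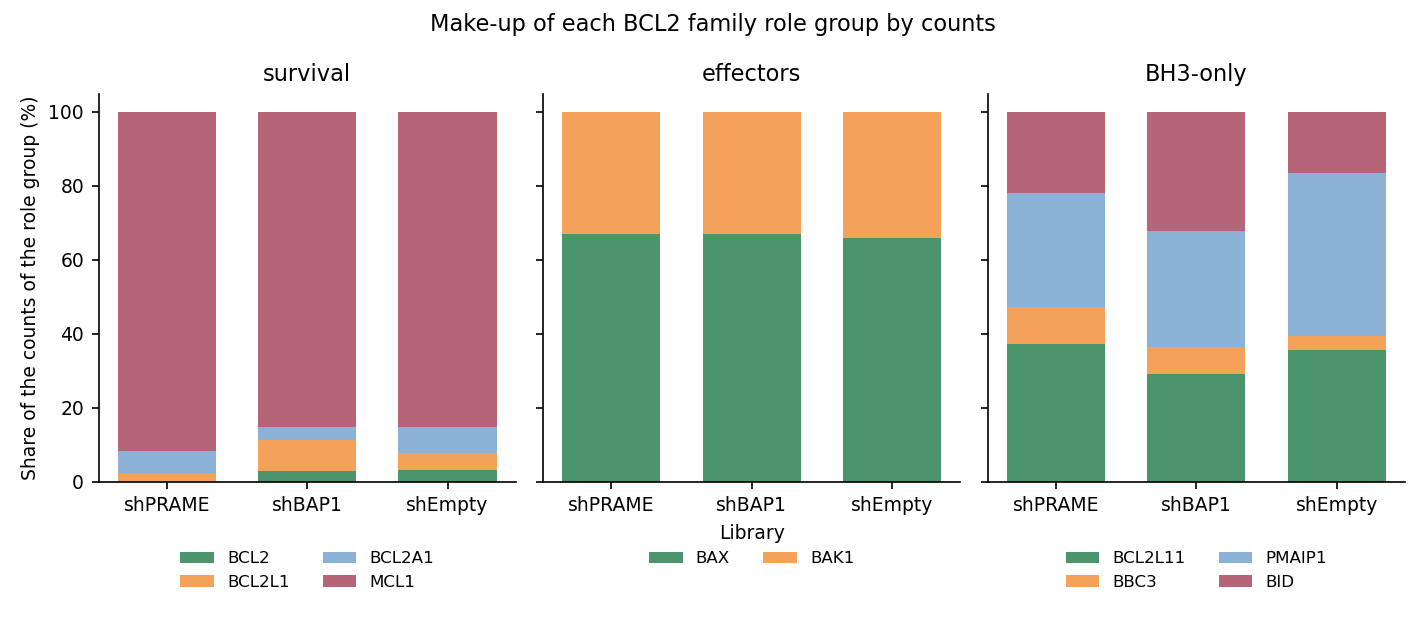
Share of the summed counts of each role group (y axis, %) supplied by each member in the shPRAME, shBAP1 and shEmpty libraries. BAX and BAK1 divide the effector counts almost alike in the 3 libraries, MCL1 fills over 85% of the survival counts in each, and PMAIP1 has its largest BH3-only share in shEmpty.

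Within the BH3-only group, PMAIP1 supplied 30.8% of the counts in shPRAME (28.02% to 33.8%), 31.6% in shBAP1 (28.8% to 34.5%) and 44.3% in shEmpty (41.9% to 46.6%). BBC3 supplied 10.0% in shPRAME, 7.05% in shBAP1 and 3.77% in shEmpty, and BID 21.9%, 32.1% and 16.4%. Over all 10 members, the survival genes held 85.8% of the counts in shPRAME (85.2% to 86.3%), 65.8% in shBAP1 (64.8% to 66.8%) and 72.8% in shEmpty (72.0% to 73.6%). The summed level of the 4 survival genes was 719 CPM in shPRAME, 364 CPM in shBAP1 and 494 CPM in shEmpty, most of it MCL1. That of the 2 effectors was 65.9, 119 and 92.5 CPM in the same order, and that of the 4 BH3-only genes 53.4, 69.7 and 91.9 CPM. The ratio of MCL1 to BAX counts within a library was 14.95 in shPRAME, 3.87 in shBAP1 and 6.91 in shEmpty, which is 2.16-fold above the control in shPRAME (1.97 to 2.38) and 1.78-fold below it in shBAP1 (1.63 to 1.95). The ratio of MCL1 to PMAIP1 counts was 40.1 in shPRAME, 14.05 in shBAP1 and 10.4 in shEmpty, a 3.87-fold (3.37 to 4.45) and a 1.36-fold (1.18 to 1.56) higher ratio than in the control. That of BCL2A1 to PMAIP1 was 3.01-fold above the control in shPRAME (2.53 to 3.58) and 1.38-fold below it in shBAP1 (1.12 to 1.71). Ratios with BCL2 went the other way in shPRAME. There BCL2 to BAX was 20.2-fold below the control (10.7 to 42.8), and BCL2 to BCL2L11 was 16.9-fold below it (8.92 to 36.2). In shBAP1 BCL2 to BAX was 1.87-fold below the control (1.51 to 2.32). BCL2 to BCL2L11 was 1.12-fold above the control in shBAP1 (0.878 to 1.43), an interval that included no change. Longer transcripts weigh more in such shares, so only the same share or ratio is compared between libraries.

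Levels of different members were compared per length, as CPM per kilobase of the union of each gene's exons in GENCODE 29. MCL1 was the highest in each library, at 162 in shPRAME, 75.8 in shBAP1 and 103 in shEmpty. It was followed by BCL2A1 (38.7) and BAX (31.3) in shPRAME, by BAX (56.6) and BAK1 (17.8) in shBAP1, and by BAX (43.2) and BCL2A1 (31.8) in shEmpty. BCL2 stood last on this scale in all 3, at 0.0466, 0.912 and 1.30, but in shEmpty its place below BBC3 (1.66) was reversed when the longest transcript was used as the length (2.05 for BCL2 and 1.89 for BBC3). The annotation is newer than the one behind the counts, so these levels are approximate.

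The genes whose pattern over the 3 libraries was most like that of a called member were searched among 9499 genes, by the distance between the pairs of log2 ratios of shPRAME and shBAP1 against shEmpty. BCL2A1 lay nearest to RAC3 (distance 0.03), ALDH1A3 (0.05) and TWIST1 (0.05). TWIST1, for example, had log2 ratios of 0.27 in shPRAME and -1.30 in shBAP1, against 0.28 and -1.35 for BCL2A1. PMAIP1 lay nearest to NDUFV2 (0.01), itself a gene of chromosome 18, RAP2A (0.04) and NEK2 (0.08). BCL2 had fewer than 20 counts in a library and was given no such neighbours. With 3 libraries a pattern is 2 numbers, so close matches are common.

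Beyond the 10 members, 80 other genes of the apoptosis pathway were listed by function in 6 groups, and 66 of them were measured. In shPRAME 2 were higher and 8 lower than in shEmpty (15.2% called, beside 19.3% of all genes), with a median log2 ratio of -0.13, against -0.06 for all measured genes. Of 8 measured further relatives of BCL2, 1 was called, BMF, a BH3-only gene known to respond to loss of cell anchorage. BMF was at 39.5 CPM in shPRAME and 15.6 CPM in shEmpty, 2.53-fold higher (2.202 to 2.90). Of 15 apoptosome and caspase genes 1 was higher and 2 were lower. The initiator caspase gene CASP9 was 2.18-fold higher in shPRAME (1.83 to 2.59), whereas the cytochrome c gene CYCS, which has many processed pseudogenes, was 2.34-fold lower (2.27 to 2.42). Of 5 inhibitor of apoptosis genes 1 was lower, BIRC5 (survivin, which also works in mitosis), by 3.12-fold.

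Of 14 genes for mitochondrial partners 2 were lower in shPRAME, the outer membrane channel gene VDAC3 (2.37-fold) and MTCH2, the mitochondrial receptor of truncated BID (2.07-fold). Of 17 regulators 3 were lower, E2F1 (3.06-fold), MITF (2.71-fold) and the stress transcription factor ATF4 (2.31-fold), which is known to induce PMAIP1. The called shares of the mitochondrial partners (14.3%) and the regulators (17.6%) in shPRAME lay near the 19.3% of all measured genes. None of the 7 measured genes of the death receptor pathway, receptors and their partners, was called against shEmpty in either knockdown library. With 7 genes, 0 called is not read as a departure from the 19.3% of all genes in shPRAME or the 14.1% in shBAP1. In shBAP1 0 of the 66 were higher and 3 lower than in shEmpty (4.55% called, beside 14.1% of all genes), with a median of -0.16, against -0.03 for all measured genes. The 3 were BOK, a BAX-like effector (3.32-fold lower, 2.24 to 5.04, on 32 counts in shBAP1 and 134 in shEmpty), the calcium channel gene ITPR1 of the endoplasmic reticulum (2.43-fold) and E2F1 (2.09-fold). Between the knockdown libraries 6 were higher and 5 lower in shPRAME (16.7% called, beside 25.1% of all genes), with a median of -0.01, against -0.06 for all genes, and BOK stood farthest apart at 6.27-fold higher (4.33 to 9.36).

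**Figure D5:**
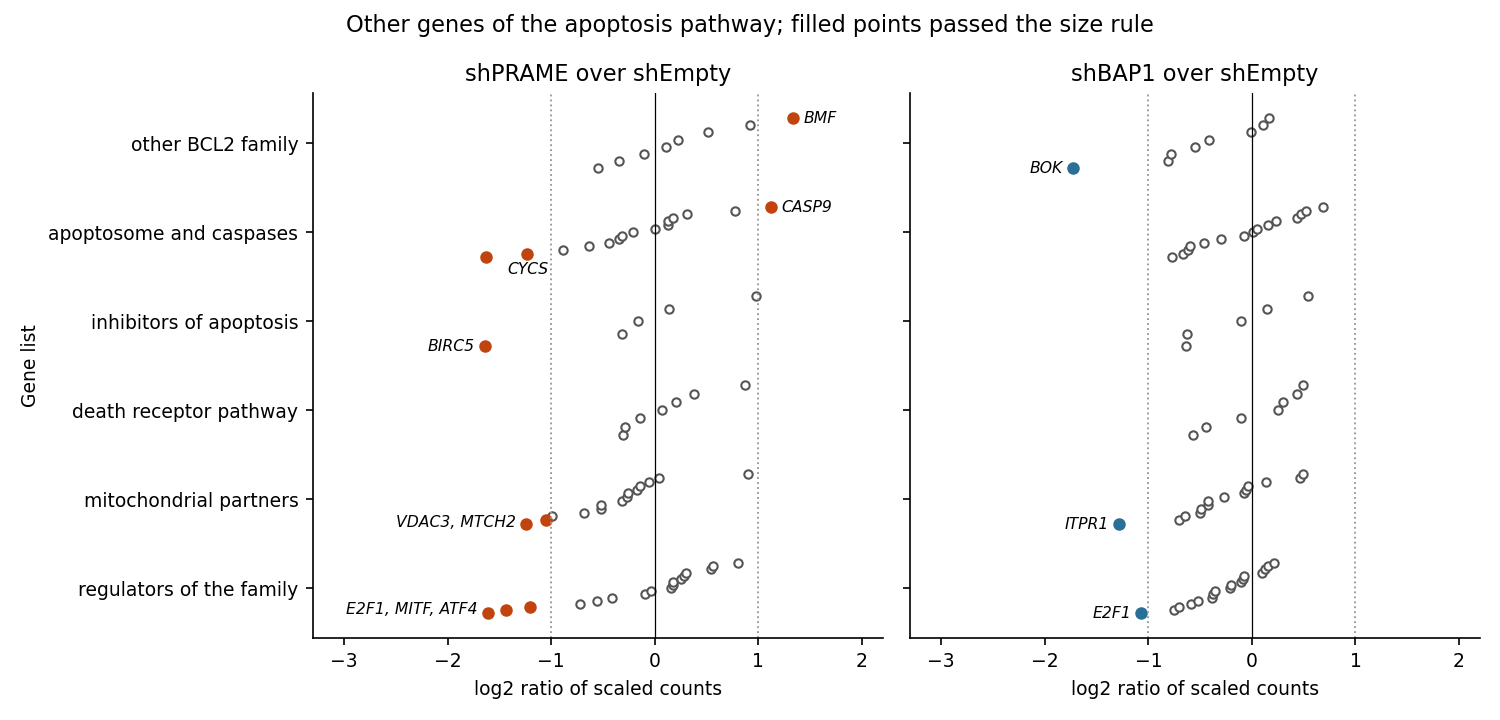
Log2 ratio (x axis) of the 66 measured pathway genes in 6 lists for shPRAME over shEmpty and shBAP1 over shEmpty, each point 1 gene; filled points passed the size rule, those described in the text are named, and dotted lines mark the 2-fold limit. In shPRAME 8 of the 10 called genes lie on the lower side, and in shBAP1 all 3 do.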

How the data were processed

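Per the labels' protocols, RNA was extracted with TRIzol, and directional libraries of purified messenger RNA were sequenced on a NovaSeq as paired reads of 100 bases. The deposited values are whole-number read counts per gene. The tools named are TopHat, FastQC, edgeR and Cufflinks, and the build is hg19 (GRCh37), per the submitters' processing notes. Which tool counted the reads, on which annotation and with or without strand, is not given in the sources used here, so values of overlapping, antisense or duplicated genes are uncertain.

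Counts were scaled with TMM factors over the 3 libraries (edgeR 4.0.16, R 4.3.3). Ratios carry exact conditional binomial 95% intervals, computed without a pseudocount. For the ratio, but not for its interval, a count of 0 was set to 3. A count of 0 allows up to 3 counts, or 0.164 (shPRAME), 0.202 (shBAP1) and 0.160 CPM (shEmpty). Of the 24424 genes 4896 had no count, and every row named a gene. edgeR's test needs replicates and was not run. The alternatives tried were a pseudocount of 1 CPM, fold limits of 1.5 or 3, a minimum mean count of 10, of 200 or none, and scaling by DESeq2 (1.42.0), by upper quartiles or by totals. Subtraction of chromosome medians, taken relative to the median of all measured genes (RefSeq chromosomes for 99.1% of measured genes), was added after the data were seen. The procedure was tested on simulated counts that varied by counting error only, which cannot show how far populations differ without a knockdown.

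The members and lists were chosen with earlier results of these data known. All members were named. From each pathway list up to 4 called genes per comparison with shEmpty were named, and for each called member the 3 nearest genes averaging 200 counts or more with 20 or more in each library. Some genes that met this rule are not reported here. Calculations used Python 3.11.15, numpy 2.4.6, scipy 1.17.1, pandas 2.3.3 and matplotlib 3.10.9.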

Additional observations from a re-analysis of the deposited data

How the results depend on the processing

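The members called did not differ between TMM, upper-quartile and DESeq2 scaling, a count minimum of 10 or none, or a pseudocount of 1 CPM, in any of the 3 comparisons, and total-count scaling added BID in shPRAME against shBAP1. With a count minimum of 200, BCL2 and BBC3 were not tested. Of the 8 members left 1 was called in shPRAME, beside 1534 of 9574 genes. With a fold limit of 1.5, 5 of 10 members were called in shPRAME, 3 in shBAP1 and 7 between the knockdowns. Of the 11956 measured genes 4903, 3645 and 5749 were called at that limit, in the same order. With a limit of 3, 1 member was called in shPRAME and 0 in shBAP1, beside 991 and 778 of all measured genes. With chromosome medians (relative to the median of all measured genes) subtracted, 1 member was called in shPRAME and 5 between the knockdowns. Of the 11956 measured genes 2174 and 2851 were called in that order. Under this subtraction 4 member ratios changed sign: BAK1 (-0.11) and BCL2 (0.078) in shBAP1 against shEmpty, and BBC3 (-0.047) and BCL2L11 (0.21) in shPRAME against shBAP1. The cause was not tested.

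Counts over all measured genes moved by over 1.5 times as follows. With no minimum, 3774 (shPRAME), 3016 (shBAP1) and 4727 (direct comparison) were called. With a fold limit of 1.5, 4903, 3645 and 5749 were called in that order, and with a limit of 3, 991, 778 and 1361. A minimum of 200 gave 1534 in shPRAME and 1008 in shBAP1, and a minimum of 10 gave 2543 in shBAP1. Pathway genes called were 16 in shPRAME and 8 in shBAP1 with no minimum, 7 in shBAP1 with a minimum of 10, 21 (shPRAME), 17 (shBAP1) and 24 (direct comparison) with a fold limit of 1.5, and 3, 1 and 2 in that order with a limit of 3.

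No paired analysis was possible because each group has 1 library. Intervals cover counting error only, and the 10 counts of BCL2 in shPRAME give its fold against shEmpty a counting interval of 14.96 to 58.8. With a pseudocount of 1 CPM its log2 ratio was -3.39 in place of -4.80 against shEmpty, and -2.92 in place of -4.29 against shBAP1.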

Other observations

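Of the 80 pathway genes, 14 fell below the count minimum, and the counts of those described here were chosen after their values were seen. HRK, a neuronal BH3-only gene, had 2 counts in shPRAME, 3 in shBAP1 and 26 in shEmpty. BIRC3, an inhibitor of apoptosis induced by NF-kB, had 37 counts in shPRAME, 30 in shBAP1 and 11 in shEmpty. BIRC7, known as melanoma inhibitor of apoptosis, had 18, 5 and 1 in the same order. The death receptor gene TNFRSF10A had 66 counts in shPRAME, 29 in shBAP1 and 23 in shEmpty, and the decoy receptor gene TNFRSF10C had 18, 12 and 1. The decoy receptor gene TNFRSF10D and the survival gene BCL2L10 had 0 counts in all 3 libraries, which by the limit of 3 counts allows up to 0.164 CPM in shPRAME, 0.202 CPM in shBAP1 and 0.160 CPM in shEmpty. FASLG had 2 counts in shPRAME and none in the other libraries, and TNFSF10, which encodes the ligand TRAIL, had 4 in shBAP1 and none in the others.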
